A study of Mus musculus with 12 samples.

Results

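The genes described here are 4 chains of the receptors for interferon and 28 genes that interferons switch on. They were chosen by name as rows of the 12 deposited count files, and the 32 symbols were found among the 55291 symbols of every file. One of them, Mx1, had too few counts to be tested, so 31 of the 32 had a fold change and the levels of all 32 are given. The 12 libraries formed 4 groups of 3, all made from RNA of VE-cadherin-positive cells, labelled endothelial, of VECadCre-tdTomato mice. Marrow AML and lung AML libraries came from mice transplanted with acute myeloid leukaemia (AML) cells of the genotype Trp53(R172H/delta), in which p53, a tumour suppressor, has 1 mutant allele and 1 that is deleted. Marrow control and lung control libraries came from normal mice without leukaemia cells. All mice of the 4 groups carried the reporter, in which a Cre recombinase driven by the VE-cadherin promoter marks cells with a red fluorescent protein. The labels give no age, sex or time after transplantation, and do not say that the 3 libraries of a group came from 3 mice, so p-values measure the spread between these libraries.

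Interferons are cytokines that warn cells of infection. Type I interferons bind a receptor of the chains Ifnar1 and Ifnar2, and interferon gamma binds a receptor of the chains Ifngr1 and Ifngr2. Janus kinases on the receptors then phosphorylate transcription factors. Downstream of type I interferon, a complex that holds Stat2 and Irf9 binds the interferon-stimulated response element, a pair of GAAA cores, in the promoters of target genes. Interferon gamma acts through another element, a palindrome of TTC and GAA. Endothelial cells carry both receptors and respond to both kinds of interferon.

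Total counts lay between 12787550 and 24803293 per library in marrow AML, 16992392 and 21793463 in marrow control, 26239146 and 39163571 in lung AML, and 24112555 and 28558352 in lung control. The 32 genes together took 0.165% to 0.179% of the counts in marrow AML, 0.0975% to 0.123% in marrow control, 0.134% to 0.140% in lung AML and 0.125% to 0.184% in lung control. Of this the 4 receptor chains took 0.0757% to 0.107% in marrow AML and 0.0175% to 0.0220% in marrow control. Summed over 10 genes, the effectors against viruses went the other way, at 0.0127% to 0.0177% in marrow AML and 0.0330% to 0.0403% in marrow control. Much of the marrow control sum was Cmpk2, with 4421, 3515 and 2579 counts there and 362, 279 and 72 in marrow AML. Of the 9 effectors tested, 4 had a positive log2 fold change and 5 a negative one. Defining endothelial transcripts were scarce against the label. A list of 20 pan-endothelial genes held 0.0391% to 0.0411% of counts in marrow AML, 0.0205% to 0.0301% in marrow control, 0.0310% to 0.105% in lung AML and 0.265% to 0.918% in lung control. Cdh5, which encodes VE-cadherin, averaged 0.634 ± 0.291 CPM (counts-per-million, scaled by the trimmed mean of M-values, TMM) in marrow AML, 4.91 ± 1.51 CPM in marrow control, 15.9 ± 14.4 CPM in lung AML and 188 ± 143 CPM in lung control (SD, n = 3 each, as for all CPM means below). Lung epithelium genes took 21.2% to 23.1% of counts in lung AML and 15.8% to 19.6% in lung control. In such bulk libraries fewer cells of a type and less RNA per cell cannot be told apart.

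Several libraries stood apart within their groups. Marrow AML library 3 had the highest value of its group for 15 genes of the set and more than 2 times the next library for 5 genes that reached 5 CPM. Lung control library 2, which also had the highest pan-endothelial share, 0.918%, had the highest value of its group for 28 of the 32 genes. In marrow control, library 1 was highest for 20 genes, and in lung AML, library 3 was highest for 20.

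**Figure D1:**
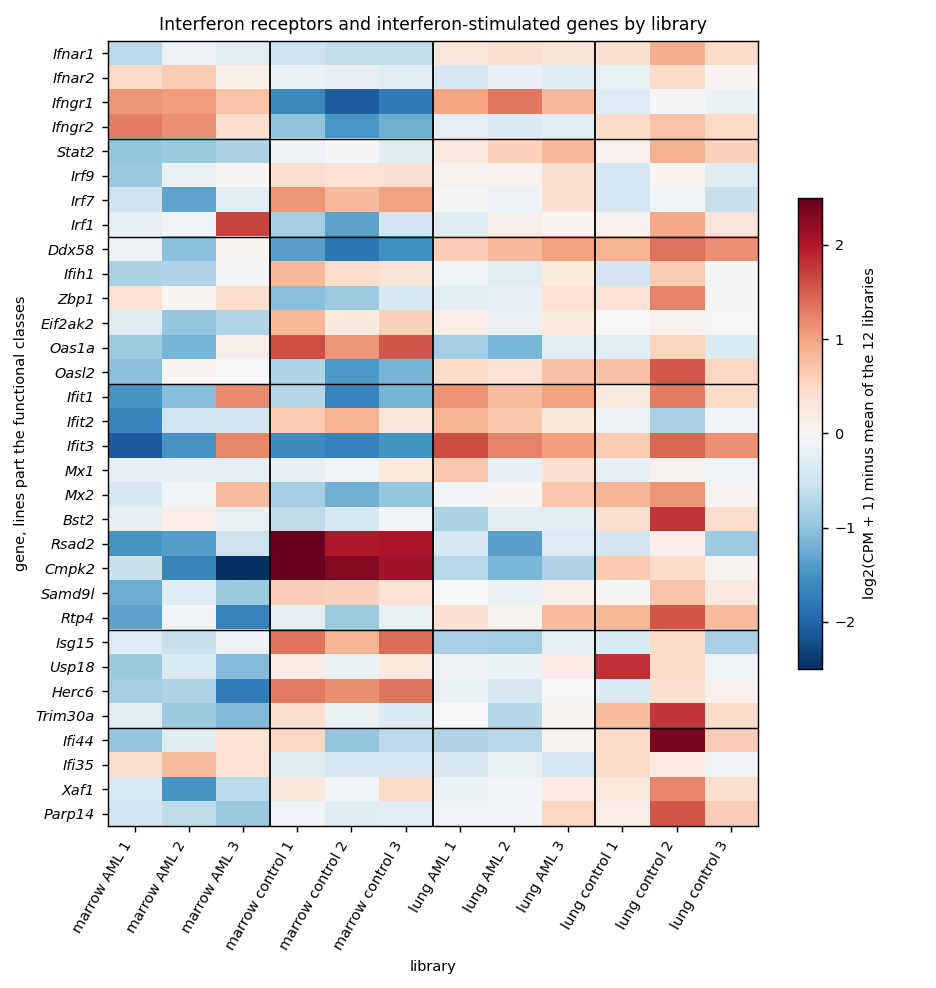
Level of the 32 genes (vertical axis, grouped by function) in the 12 libraries (horizontal axis, 3 of each group), as log2(CPM + 1) minus the gene's mean over the 12 libraries (colour). Rsad2 and Cmpk2 are high in the 3 marrow controls, Ifngr1 is low there, and lung control library 2 is higher than its group for most genes.

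Leukaemic marrow had higher levels of 3 of the 4 interferon receptor chains, while the interferon-stimulated genes moved both ways. Of 9 tested effectors against viruses, 4 were lower, led by Cmpk2 and Rsad2, and 1 was higher, Mx2. Irf1, Ddx58, Zbp1 and Ifi35 were higher as well. Calls were made where the adjusted p was under 0.05 in edgeR's quasi-likelihood test, with Benjamini-Hochberg adjustment over the 18147 genes tested. Counted over the set, 21 of the 31 tested genes were called in marrow AML against marrow control, 8 higher and 13 lower. Of all genes tested in that comparison 43.8% were called, 20.4% higher and 23.5% lower. The median log2 fold change was -0.50 over the 31 genes and -0.11 over all genes tested. Of the 21 calls, 12 held under every alternative, among them those of Ifngr1, Ifngr2, Irf7, Rsad2, Cmpk2, Isg15 and Herc6. Scaling by library totals gave a median of all genes of 0.16 in place of -0.11, and 11 genes of the set higher and 9 lower, with 4645 and 2946 of all genes in place of 3694 and 4263. Without marrow control library 2, 5 genes of the set were called higher, and the number of all genes called in that fit is not given.

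Markers of other cells moved in the same marrow comparison, and their part in these results was not tested. Of all genes tested there, 20.4% were called higher and 23.5% lower. Of 15 erythroid genes, 14 fell, and their share of counts was 0.143% to 0.650% in marrow AML and 2.58% to 2.78% in marrow control. Of 14 pericyte and smooth muscle genes, 11 rose, with shares of 0.333% to 1.14% in marrow AML and 0.0208% to 0.0710% in marrow control. Of 14 marrow stromal and osteolineage genes, 4 rose and 4 fell. Their shares were 1.91% to 3.05% in marrow AML and 1.52% to 2.32% in marrow control. Among pan-leukocyte genes 10 of 15 rose and 3 fell, at 0.0988% to 0.127% in marrow AML and 0.0473% to 0.0653% in marrow control. Of 20 pan-endothelial genes, 2 rose and 9 fell, but their summed share was higher in AML. It was 0.0391% to 0.0411% in marrow AML and 0.0205% to 0.0301% in marrow control. The monocyte and macrophage list, 1 of 15 higher, held 0.00714% to 0.0330% in marrow AML and 0.00977% to 0.0443% in marrow control, and Ms4a7 was at 0 in both. Lung epithelium genes held 0.0402% to 0.202% in marrow AML and 0.0547% to 0.266% in marrow control. For both lists the upper ends were those of marrow AML library 3 and marrow control library 2. Plasmacytoid dendritic cells are potent makers of type I interferon, and their list of 14 markers, which shares Bst2 and Irf7 with the set, held 0.0231% to 0.0285% in marrow AML and 0.0151% to 0.0198% in marrow control. Of 13 tested, 2 were called higher and 1 lower, while Siglech, Spib, Tlr7 and Tlr9 were at 0 in marrow AML and Tlr9 in marrow control.

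In the lung 1 of 31 genes was called higher and 0 lower by edgeR, against 1.17% and 1.16% of all genes tested (2.33% in either direction). At an unadjusted p under 0.05, a looser threshold for which no share of all genes is given, edgeR gave 2 higher and 9 lower. DESeq2 called 5 lower, Bst2, Ifi35, Ifi44, Ifngr2 and Trim30a, and limma-voom called 6 lower, these and Cmpk2, and 2 higher, Ifngr1 and Ifit2. The shares of all genes called by DESeq2 and limma-voom are not given here, so these counts cannot be set against them. The median log2 fold change of the 31 genes was -0.48, against 0.00 over all genes, and 24 of the 31 values were negative. Without lung control library 2 that median was -0.17. In the same comparison 11 of 20 pan-endothelial genes fell, and their share was 0.0310% to 0.105% in lung AML and 0.265% to 0.918% in lung control. None of the 12 tested T and NK cell markers was called, but all 12 values were negative (median log2 fold change -1.83). Of 13 neutrophil markers none was called and 11 values were positive (median 2.09), with shares of 0.0511% to 0.0748% in lung AML and 0.0319% to 0.0475% in lung control. Of 15 erythroid genes, 4 were called higher, with shares of 0.0301% to 0.0543% in lung AML and 0.0508% to 0.0537% in lung control. Of 14 marrow stromal and osteolineage genes, 2 were called higher and 2 lower. None of 15 monocyte and macrophage genes was called. They held 2.57% to 3.13% of counts in lung AML and 2.63% to 3.11% in lung control. The part of these other cells in the values was not tested.

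The AML effects differed between marrow and lung for 16 of the 31 genes, 9 with the higher and 7 with the lower value in the marrow, where 30.7% of all genes tested were called (14.6% and 16.1%). The differences of Herc6 and Rsad2 were -2.27 ± 0.48 and -3.30 ± 0.67 on the log2 scale (adjusted p = 0.00488 and 0.00397). Of the 16 calls, 10 held under every alternative, those of Ifngr1, Ifngr2, Ifnar2, Ifi35, Irf7, Rsad2, Ifit2, Herc6, Ddx58 and Bst2. With library totals 11 genes of the set were higher and 4 lower, and 3489 and 1757 of all genes in place of 2642 and 2925, with a median of all genes of 0.30 in place of -0.09.

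**Figure D2:**
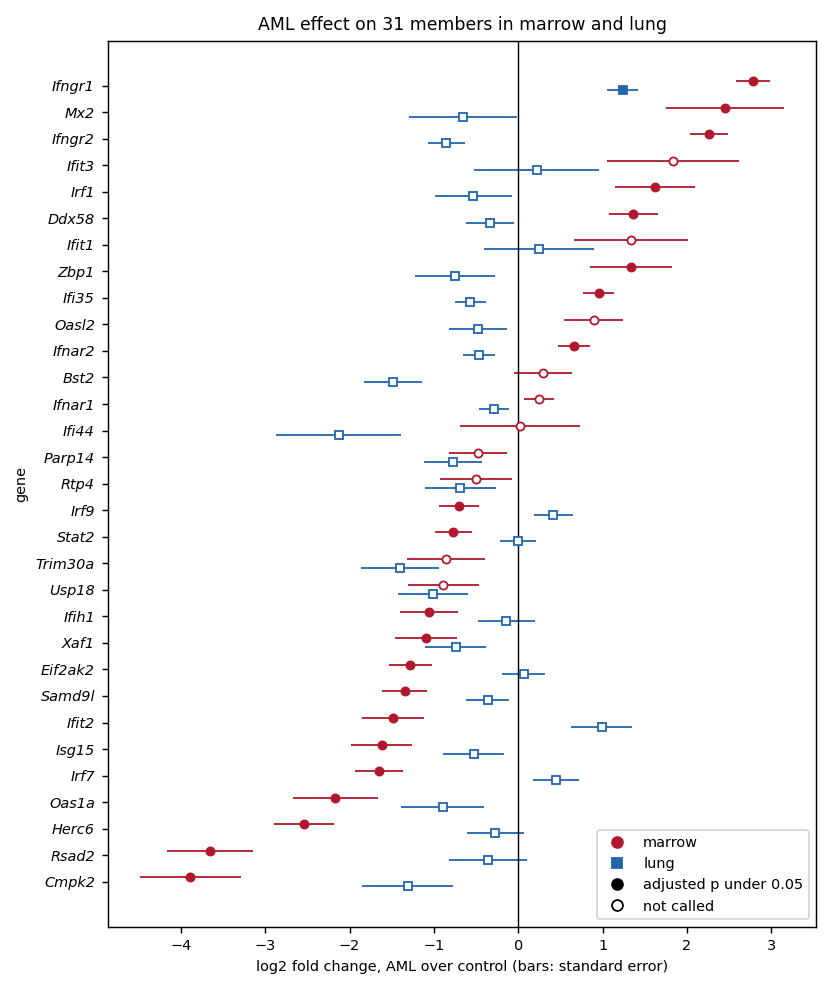
Log2 fold change of AML over control libraries (horizontal axis, bars are standard errors) for the 31 tested genes (vertical axis, ordered by the marrow value), in marrow (red circles) and lung (blue squares). Filled symbols passed an adjusted p of 0.05, which 21 genes did in the marrow and Ifngr1 alone did in the lung.

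Marrow controls and lung controls differed for 25 of the 31 genes, 8 higher and 17 lower in marrow, and 64.2% of all genes tested were called there, 29.4% higher and 34.7% lower. These controls are the same libraries as in the AML comparisons. Higher in marrow controls were Rsad2, Cmpk2, Oas1a, Isg15, Irf7, Herc6, Ifit2 and Irf9. The largest lower value was that of Mx2 (log2 fold change -3.18 ± 0.71, adjusted p = 0.00230), followed by Ifit3 (log2 fold change -3.06 ± 0.81, adjusted p = 0.00653) and Ddx58. Oasl2 was lower too, at 11.8 ± 2.93 CPM in marrow control and 53.9 ± 21.0 CPM in lung control (log2 fold change -2.19 ± 0.36, adjusted p = 0.000294). Without lung control library 2, 11 genes of the set were called lower. Without marrow control library 1, lung control library 1 or lung control library 3, 5 were called higher. The numbers of all genes called in those fits are not given. Every erythroid gene of 15 was higher and every lung epithelium gene of 15 was lower in marrow controls.

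The response element was looked for in the 250 bases before each gene start. RefSeq promoters (GRCm38.p6) were found for 26 of the 32 genes. Irf1, Irf9, Ifit2 and Trim30a had 2 promoters each. For 18 of the 26 genes the sequence at the RefSeq start was found in a GENCODE transcript of the gene. It was not for Stat2, Oas1a, Ifit3 and Bst2, among others. A pair of GAAA cores with any 2 bases between them was searched on both strands. It was present in a promoter of 8 of these 26 genes (30.8%), against 3.46% of the 27025 genes of the table. The second motif, TTCNNNGAA, which reads the same on both strands, was present in 6 of the 26 (23.1%), against 8.13% of all genes. The 2 motifs overlapped once, in the promoter of Bst2. The 8 stretches with the first motif are shown because they set the promoters of genes that were lower in leukaemic marrow beside those of genes that did not pass there. They are written 5′ to 3′ along the gene, and capitals mark every match, in which overlapping matches run together.
Stat2 (chr10:128270261-128270300, plus strand): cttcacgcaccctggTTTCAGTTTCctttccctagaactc
Oas1a (chr5:120907526-120907560, minus strand): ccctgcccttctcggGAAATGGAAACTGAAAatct
Rsad2 (chr12:26456548-26456587, minus strand): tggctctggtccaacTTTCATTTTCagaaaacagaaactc
Isg15 (chr4:156200860-156200911, minus strand): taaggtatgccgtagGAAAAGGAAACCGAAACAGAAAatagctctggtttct
Ifit1 (chr19:34640770-34640828, plus strand): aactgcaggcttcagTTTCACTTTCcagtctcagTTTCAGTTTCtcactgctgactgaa
Ifit3 (chr19:34583358-34583431, plus strand): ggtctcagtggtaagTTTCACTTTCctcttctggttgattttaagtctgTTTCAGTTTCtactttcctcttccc
Bst2 (chr8:71537572-71537617, minus strand): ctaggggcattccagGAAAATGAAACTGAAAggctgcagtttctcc
Trim30a (chr7:104465205-104465244, minus strand): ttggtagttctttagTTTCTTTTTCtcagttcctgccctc
Stat2, Oas1a, Rsad2 and Isg15, the first 4 stretches, were 4 of the 13 genes with a promoter that were called lower in marrow AML. Ifit1, Ifit3, Bst2 and Trim30a were 4 of the 7 genes with a promoter that were not called there. None of the 6 genes with a promoter that were called higher, the receptor chains Ifnar2, Ifngr1 and Ifngr2 among them, held the core in this window. These counts describe the letters of 1 window and were not tested.

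**Figure D3:**
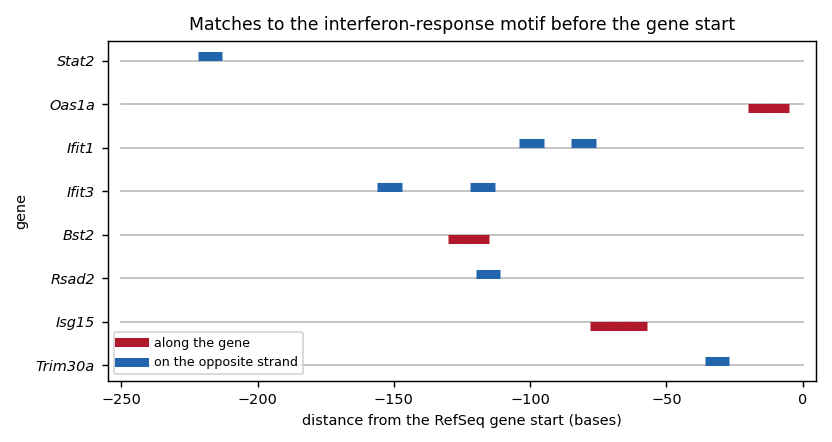
Position of each match to the paired GAAA core in the 250 bases before the RefSeq gene start, in bases from the start (horizontal axis), for the 8 genes that had one (vertical axis). Red bars are matches along the gene and blue bars matches on the opposite strand, and the matches of Oas1a lie nearest to the start, 5 to 20 bases before it.

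The chains of the interferon gamma receptor were higher in leukaemic marrow, and the ligand-binding chain was higher in leukaemic lung as well. Ifngr1, which binds interferon gamma (chromosome 10, 19591949 to 19610229, GRCm38), had 589.6, 569 and 451 CPM in the marrow AML libraries, against 88.8, 65.4 and 80.1 CPM in the marrow controls. All AML values lay above all control values, and Ifngr1 rose (log2 fold change 2.78 ± 0.20, adjusted p = 1.26e-05). In the lung Ifngr1 had 547, 692 and 482 CPM in AML libraries, against 219, 267 and 245 CPM in controls. There too the groups did not overlap, and Ifngr1 rose (log2 fold change 1.24 ± 0.19, adjusted p = 0.0108), the only one of the 31 tested genes called in the lung. The rise was larger in the marrow, and the test of the difference passed (log2 difference 1.54 ± 0.26, adjusted p = 0.00156). Marrow controls lay below lung controls (log2 fold change -1.64 ± 0.19, adjusted p = 2.21e-05). These calls of Ifngr1 held under every alternative tried.

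Ifngr2, the chain that carries the signal of the same receptor (chromosome 16, 91547072 to 91565623), moved apart in the tissues. It had 132, 121 and 72.6 CPM in marrow AML, against 26.3, 19.1 and 22.6 CPM in marrow control, and rose (log2 fold change 2.26 ± 0.22, adjusted p = 3.93e-05). In lung AML it had 45.9, 42.1 and 44.8 CPM, against 75.3, 88.9 and 75.8 CPM in lung control. The lung AML values all lay below the lung controls, but the difference did not pass (log2 fold change -0.85 ± 0.22, adjusted p = 0.0663), although it did by DESeq2, by limma-voom, with the 6 lung libraries alone and without marrow AML library 3 (adjusted p = 0.0166). The AML effect on Ifngr2 differed between the tissues with the smallest p of all 31 genes (log2 difference 3.11 ± 0.31, adjusted p = 0.000149). Marrow controls held less Ifngr2 than lung controls (log2 fold change -1.82 ± 0.22, adjusted p = 3.38e-05). Per kilobase of exon, Ifngr1 exceeded Ifngr2 in each group, with means of 188 and 28.8 CPM per kb in marrow AML, 27.4 and 6.03 in marrow control, 202 and 11.8 in lung AML, and 85.6 and 21.2 in lung control.

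The type I receptor changed less. Ifnar2, its high-affinity chain (chromosome 16, 91372783 to 91405589), had 109, 120.3 and 83.9 CPM in marrow AML, against 68.8, 66.3 and 62.9 CPM in marrow control. The groups did not overlap and Ifnar2 rose (log2 fold change 0.66 ± 0.19, adjusted p = 0.0167), but the call was lost without marrow AML library 2 (adjusted p = 0.0563) or marrow control library 3 (adjusted p = 0.0530). It had 56.4, 66.6 and 61.9 CPM in lung AML, against 67.4, 108 and 79.5 CPM in lung control, where all AML values lay below the controls but Ifnar2 did not pass (log2 fold change -0.46 ± 0.19, adjusted p = 0.251). The AML effects on Ifnar2 differed between the tissues (log2 difference 1.12 ± 0.27, adjusted p = 0.00962). Ifnar1, the chain that binds type I interferon more weakly (chromosome 16, 91485238 to 91507441), had 35.7, 51.9 and 47.4 CPM in marrow AML, against 39.5, 37.0 and 37.0 CPM in marrow control. Its values overlapped and did not pass (log2 fold change 0.25 ± 0.18, adjusted p = 0.278), but it passed with library totals (0.57, adjusted p = 0.0274) and with a filter of 5 CPM in 3 libraries (0.47). In the lung it had 70.0, 75.8 and 71.8 CPM in AML libraries, against 77.1, 108 and 80.8 CPM in controls, again lower in each AML library without passing (log2 fold change -0.29 ± 0.18, adjusted p = 0.491). Marrow controls held less Ifnar1 than lung controls (log2 fold change -1.23 ± 0.18, adjusted p = 0.000123), whereas Ifnar2 did not pass there (log2 fold change -0.36 ± 0.19, adjusted p = 0.117).

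**Figure D4:**
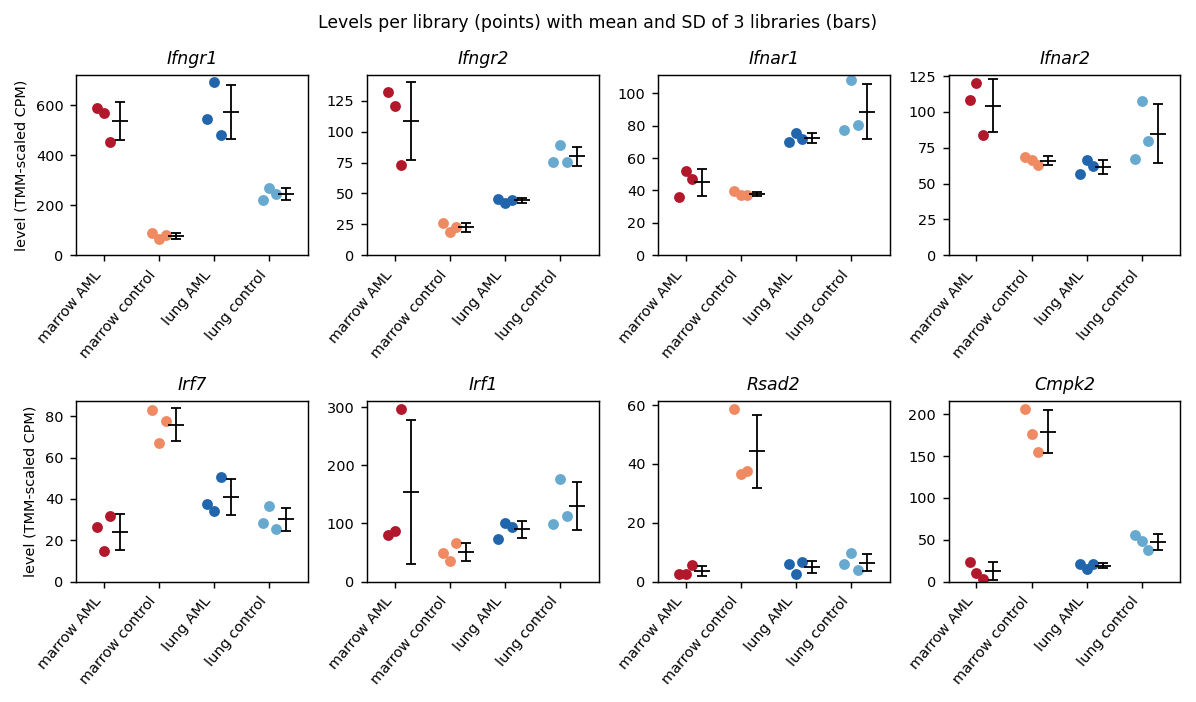
TMM-scaled CPM (vertical axes, from 0) of the 4 receptor chains, the factors Irf7 and Irf1, and the effectors Rsad2 and Cmpk2 in each library (points) with mean and SD of 3 libraries (black bars), by group (horizontal axes). Ifngr1 is higher in AML than in control libraries of both tissues, and Rsad2 and Cmpk2 are high in marrow controls.

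Of the 4 transcription factors, 3 fell in leukaemic marrow and Irf1 rose, beside 23.5% of all genes tested called lower and 20.4% higher. None of the 4 was called in the lung, where 2.33% of all genes were. Irf7, which drives type I interferon genes and amplifies the response (chromosome 7, 141262706 to 141266481), had 26.2, 14.7 and 31.7 CPM in marrow AML, against 83.1, 67.2 and 77.7 CPM in marrow control. All AML values were below the controls, and Irf7 fell (log2 fold change -1.65 ± 0.28, adjusted p = 0.000810). Lung AML libraries had 37.5, 34.2 and 50.8 CPM, against 28.3, 36.3 and 25.6 CPM in lung controls, with overlap (log2 fold change 0.44 ± 0.27, adjusted p = 0.500). The AML effects differed (log2 difference -2.09 ± 0.39, adjusted p = 0.00255). Marrow controls had more Irf7 than lung controls (log2 fold change 1.34 ± 0.28, adjusted p = 0.00144).

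Stat2 and Irf9, which belong to the complex that binds the response element, fell less. Stat2 (chromosome 10, 128270559 to 128292849) had 21.0, 22.0 and 24.4 CPM in marrow AML, against 38.8, 42.0 and 34.7 CPM in marrow control, without overlap (log2 fold change -0.77 ± 0.22, adjusted p = 0.0144). Its call was lost without marrow control library 2 (adjusted p = 0.0502) or lung AML library 2 (adjusted p = 0.0648), with library totals, by limma-voom and with the 6 marrow libraries alone. Lung AML values were 50.1, 64.5 and 75.5 CPM and lung control values 46.5, 80.3 and 64.0 CPM (log2 fold change -0.01 ± 0.22, adjusted p = 0.998). Irf9 (chromosome 14, 55603571 to 55610030) had 42.2, 71.4 and 83.2 CPM in marrow AML, against 109.5, 105 and 107 CPM in marrow control (log2 fold change -0.70 ± 0.23, adjusted p = 0.0294). The groups did not overlap, but the call was lost without marrow AML library 1, any 1 of the 3 marrow controls, or lung AML library 2 (adjusted p = 0.0647, 0.0713, 0.0625, 0.0593 and 0.116), and under 4 other settings. Lung AML libraries had 86.4, 88.6 and 109 CPM of Irf9, against 60.5, 86.0 and 66.2 CPM in lung controls, higher in each AML library without passing (log2 fold change 0.42 ± 0.23, adjusted p = 0.430).

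Irf1, a factor that interferon gamma induces (chromosome 11, 53770014 to 53778374), had 79.4, 87.3 and 298 CPM in marrow AML, against 49.6, 35.6 and 66.0 CPM in marrow control. All AML values lay above the controls, with library 3 far above the other 2. Irf1 rose (log2 fold change 1.62 ± 0.47, adjusted p = 0.0164), but without marrow AML library 3 its log2 fold change was 0.73 (adjusted p = 0.0649), and without marrow control library 2 it was 1.42 (adjusted p = 0.0676). In the lung Irf1 had 73.4, 101 and 94.5 CPM in AML libraries, against 98.3, 177 and 113 CPM in controls (log2 fold change -0.53 ± 0.46, adjusted p = 0.683). Lung control library 2 was the highest of the lung libraries for Irf1.

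Sensors of foreign nucleic acid moved both ways in the marrow, 2 of 6 higher and 3 lower beside 20.4% and 23.5% of all genes, and none of the 6 was called in the lung. Ddx58, the RNA helicase RIG-I (chromosome 4, 40203773 to 40239828), had 21.2, 10.9 and 24.6 CPM in marrow AML, against 8.56, 5.98 and 7.43 CPM in marrow control. It rose without overlap (log2 fold change 1.36 ± 0.29, adjusted p = 0.00337), except by limma-voom, where it did not pass. Lung AML libraries had 36.2, 41.6 and 47.7 CPM of Ddx58, against 43.8, 61.7 and 52.9 CPM in lung controls (log2 fold change -0.34 ± 0.29, adjusted p = 0.676). Ddx58 had the smallest p of the set between marrow and lung controls (log2 fold change -2.85 ± 0.31, adjusted p = 1.41e-05). The related helicase Ifih1, known as MDA5, went the other way and fell in marrow AML, at 13.3 ± 4.53 CPM, against 27.8 ± 5.21 CPM in marrow control (log2 fold change -1.06 ± 0.34, adjusted p = 0.0263). That call was lost without marrow AML library 1 or 2, marrow control library 1 or 2, or lung AML library 2 (adjusted p = 0.0738, 0.0782, 0.0929, 0.0512 and 0.0731), and under 4 other settings.

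Eif2ak2, the kinase PKR that halts translation when it meets double-stranded RNA, fell to 11.7 ± 3.09 CPM in marrow AML, against 28.3 ± 5.78 CPM in marrow control (log2 fold change -1.28 ± 0.26, adjusted p = 0.00214). Oas1a, an oligoadenylate synthetase, fell to 4.77 ± 2.96 CPM in marrow AML, against 21.6 ± 4.10 CPM in marrow control (log2 fold change -2.17 ± 0.50, adjusted p = 0.00504). Oas1a shares 57.6% of its stretches of 50 bases with transcripts of Oas1g and Oas1b, so its counts may be split among them. Zbp1, a sensor of left-handed nucleic acid, was low throughout, with 6.22, 4.81 and 6.70 CPM in marrow AML, against 1.72, 2.01 and 3.29 CPM in marrow control (log2 fold change 1.34 ± 0.48, adjusted p = 0.0425). It no longer passed without marrow AML library 1 or 3, marrow control library 1 or 2, or lung AML library 1 or 3 (adjusted p = 0.0621, 0.0704, 0.128, 0.119, 0.0593 and 0.0542), or under 4 other settings. Oasl2, a relative of Oas1a with ubiquitin-like domains, had 22.0 ± 8.39 CPM in marrow AML and 11.8 ± 2.93 CPM in marrow control and did not pass (log2 fold change 0.90 ± 0.35, adjusted p = 0.0571). It did under 4 other settings and without marrow AML library 1, lung AML library 2 or lung control library 2 (adjusted p = 0.0108, 0.0388 and 0.0421).

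Among 10 effectors against viruses, Rsad2 and Cmpk2 had the largest falls of the set in leukaemic marrow. Rsad2, the antiviral enzyme viperin (chromosome 12, 26442746 to 26456452), had 2.40, 2.60 and 5.51 CPM in marrow AML, against 58.6, 36.7 and 37.6 CPM in marrow control (log2 fold change -3.65 ± 0.51, adjusted p = 0.000267). Its neighbour Cmpk2, a mitochondrial nucleotide kinase (chromosome 12, 26469204 to 26479837), had 23.4, 10.7 and 2.51 CPM in marrow AML, against 206, 177 and 154 CPM in marrow control (log2 fold change -3.89 ± 0.60, adjusted p = 0.000466). Neither gene overlapped between the marrow groups, and marrow AML library 3 was the lowest for Cmpk2 but the highest of its group for Rsad2. Lung AML libraries had 5.94, 2.65 and 6.53 CPM of Rsad2, against 5.78, 9.60 and 3.997 CPM in lung controls (log2 fold change -0.36 ± 0.46, adjusted p = 0.824). Cmpk2 had 21.2, 15.5 and 20.5 CPM in lung AML, against 56.0, 48.5 and 37.4 CPM in lung control. Those lung groups did not overlap, yet Cmpk2 did not pass (log2 fold change -1.31 ± 0.54, adjusted p = 0.250). It did by limma-voom, with the 6 lung libraries alone, and without marrow AML library 3, where its adjusted p was 0.0305. Marrow controls were above lung controls for Rsad2 (log2 fold change 2.78 ± 0.49, adjusted p = 0.000469) and for Cmpk2 (log2 fold change 1.92 ± 0.55, adjusted p = 0.00984).

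Samd9l and Ifit2 fell in the marrow as well. Samd9l, an antiviral protein that restrains growth, averaged 18.7 ± 6.48 CPM in marrow AML and 47.7 ± 4.36 CPM in marrow control (log2 fold change -1.35 ± 0.26, adjusted p = 0.00189). Ifit2, an RNA-binding protein with tetratricopeptide repeats, averaged 10.7 ± 4.67 CPM in marrow AML and 29.98 ± 6.05 CPM in marrow control (log2 fold change -1.48 ± 0.37, adjusted p = 0.00722). In the lung Ifit2 had a positive value that did not pass, 30.2 ± 6.22 CPM in AML and 15.2 ± 4.10 CPM in control libraries (log2 fold change 0.99 ± 0.36, adjusted p = 0.189), and the 2 effects differed (log2 difference -2.47 ± 0.52, adjusted p = 0.00458).

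The family members Ifit1 and Ifit3 were singled out after their values were seen. Ifit1, which binds viral RNA with an incomplete cap, had 3.56, 5.08 and 27.9 CPM in marrow AML, against 6.79, 3.01 and 4.67 CPM in marrow control. Ifit3 had 1.75, 3.17 and 25.9 CPM in marrow AML, against 2.93, 2.61 and 3.11 CPM in marrow control. For both genes marrow AML library 3 alone was high, and neither passed (log2 fold change 1.34 ± 0.67, adjusted p = 0.130 for Ifit1, log2 fold change 1.84 ± 0.78, adjusted p = 0.0775 for Ifit3). Without that library the log2 fold changes were -0.15 and -0.21. Without marrow AML library 1 both passed, and Ifit3 also without marrow AML library 2 (adjusted p = 0.0370, 0.0140 and 0.0333), with library totals, by DESeq2 and with a filter of 5 CPM in 3 libraries. Ifit3 shares 51.2% of its 50-base stretches with Ifit3b, so the counts of this pair may be mixed.

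Bst2, the membrane protein tetherin that holds budding virus (chromosome 8, 71534255 to 71537456), had 45.6, 58.8 and 45.8 CPM in marrow AML, against 33.5, 39.2 and 49.9 CPM in marrow control (log2 fold change 0.29 ± 0.34, adjusted p = 0.517). In the lung it had 29.8, 43.5 and 43.2 CPM in AML libraries, against 71.9, 183 and 71.7 CPM in controls. The lung groups did not overlap, with lung control library 2 far above the rest, and Bst2 just missed the threshold (log2 fold change -1.49 ± 0.35, adjusted p = 0.0524). It passed with library totals, with the replicate block, unfiltered or filtered at 5 CPM in 3 libraries, by DESeq2 and limma-voom, and without marrow AML library 3, lung control library 1 or lung control library 3 (adjusted p = 0.0444, 0.0462 and 0.0431). Without lung control library 2 its log2 fold change was -0.89 (adjusted p = 0.138). The AML effects on Bst2 differed between the tissues (log2 difference 1.78 ± 0.49, adjusted p = 0.0178, and 1.18 without lung control library 2).

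The remaining effectors were Rtp4, Mx2 and Mx1. Rtp4, a chaperone of receptors, did not pass in marrow (log2 fold change -0.50 ± 0.43, adjusted p = 0.367) or lung (log2 fold change -0.69 ± 0.42, adjusted p = 0.497). Without marrow AML library 2 it passed in the marrow (log2 fold change -1.19, adjusted p = 0.0215). Mx2, a dynamin-like antiviral GTPase, was low, with 1.10, 1.60 and 3.80 CPM in marrow AML, against 0.558, 0.201 and 0.419 CPM in marrow control. It rose (log2 fold change 2.45 ± 0.70, adjusted p = 0.0145), but not without marrow control library 2 (adjusted p = 0.0590), by limma-voom or with the 6 marrow libraries alone. Mx1, the related GTPase, had 0 counts in the 3 marrow AML libraries, against 0, 2 and 6 counts in the marrow controls, and 30, 0 and 12 counts in lung AML, against 0, 6 and 2 in lung control. A count of 0 allows up to 3 counts, or 0.105 to 0.194 CPM in the marrow AML libraries by counting error alone.

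Of the 4 genes of the set grouped as the ubiquitin-like system, Isg15, Herc6, Usp18 and Trim30a, 2 were called lower in the marrow and 0 higher. Of all genes tested there, 23.5% were called lower and 20.4% higher. None of the 4 was called in the lung, where 2.33% of all genes were. Isg15 itself (chromosome 4, 156199424 to 156200818) averaged 12.5 ± 1.91 CPM in marrow AML and 38.4 ± 7.78 CPM in marrow control (log2 fold change -1.62 ± 0.37, adjusted p = 0.00426). Herc6, the main ligase that attaches Isg15 in mice (chromosome 6, 57581000 to 57664632), had 6.22, 6.68 and 2.90 CPM in marrow AML, against 31.4, 28.5 and 32.2 CPM in marrow control. The marrow groups lay far apart, and Herc6 fell (log2 fold change -2.55 ± 0.36, adjusted p = 0.000260). Lung AML libraries had 10.6, 8.99 and 12.3 CPM of Herc6, against 9.17, 16.2 and 13.1 CPM in lung controls (log2 fold change -0.27 ± 0.34, adjusted p = 0.810).

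Usp18, which removes Isg15 and blocks signalling at Ifnar2, had 19.9 ± 5.76 CPM in marrow AML and 36.9 ± 5.63 CPM in marrow control (log2 fold change -0.89 ± 0.42, adjusted p = 0.108). Usp18 had 31.4, 30.6 and 39.7 CPM in lung AML, against 125, 48.1 and 31.9 CPM in lung control, where library 1 alone was high. Without that lung control the lung log2 fold change of Usp18 was -0.25, against -1.01 with it, and its marrow value passed (log2 fold change -0.87, adjusted p = 0.0195). Trim30a, a member of the tripartite motif ligase family, did not pass in marrow (log2 fold change -0.85 ± 0.46, adjusted p = 0.157) or lung (log2 fold change -1.40 ± 0.46, adjusted p = 0.149).

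Of the 4 other genes, Ifi35, an interferon-induced leucine zipper protein (chromosome 11, 101448407 to 101458698), rose in marrow AML. It had 83.0, 106 and 77.6 CPM there, against 48.6, 44.7 and 44.5 CPM in marrow control, without overlap (log2 fold change 0.95 ± 0.18, adjusted p = 0.00160). In the lung it had 45.8, 53.1 and 44.4 CPM in AML libraries, against 85.3, 70.1 and 57.0 CPM in controls. Every lung AML value was below every lung control, but Ifi35 did not pass (log2 fold change -0.57 ± 0.18, adjusted p = 0.133), and the effects differed (log2 difference 1.52 ± 0.26, adjusted p = 0.00149). A gene on the opposite strand, Gm11626, overlaps 16.8% of the exon length of Ifi35, and the counts ignore strand. Xaf1, a binding partner of the apoptosis inhibitor Xiap, fell in the marrow (log2 fold change -1.10 ± 0.37, adjusted p = 0.0315). Its call was lost without marrow AML library 2, marrow control library 1 or 3, or lung AML library 2 (adjusted p = 0.0868, 0.0717, 0.0946 and 0.0906), and under 6 other settings. Parp14, an ADP-ribosyltransferase, and Ifi44 did not pass in the marrow (log2 fold change -0.48 ± 0.34, adjusted p = 0.284 and log2 fold change 0.02 ± 0.72, adjusted p = 0.996).

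Ligands were almost absent from the counts. Of 21 interferon genes looked up, 18 had 0 counts in every library, Ifnb1 and the alpha interferons among them. In the 6 marrow libraries all 21 were at 0. Ifng, the gene of interferon gamma, had 7, 5 and 4 counts in lung AML libraries 1, 2 and 3, against 8, 13 and 24 counts in the lung controls, too few to be tested. T and NK cells are its main source, and 13 of their markers held 0.000732% to 0.00205% of counts in lung AML and 0.00532% to 0.00576% in lung control. In the marrow they held 0.00177% to 0.00218% in AML and 0.000930% to 0.00105% in control, with 1 called higher and 0 lower, and Cd3e, Cd8a and Ncr1 at 0 in both groups. A count of 0 allows up to 0.105 to 0.194 CPM in marrow AML libraries and 0.140 to 0.180 CPM in marrow controls.

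Other genes of the pathway came from a list of 109 genes, of which 86 were tested. In the marrow 28 were higher and 24 lower in AML, beside 20.4% and 23.5% of all genes tested, with a median log2 fold change of 0.04 (all genes -0.11). Of 11 kinases, factors and further receptor chains, 4 rose and 4 fell. The kinases Jak1, Jak2 and Tyk2, which carry the signal of both receptors between them, fell (log2 fold change -0.65 ± 0.17, -0.81 ± 0.19 and -0.60 ± 0.22, adjusted p = 0.0101, 0.00467 and 0.0472). Stat3, which responds mainly to interleukin 6 and its relatives, rose to 245 ± 25.3 CPM in marrow AML, against 43.2 ± 2.70 CPM in marrow control (log2 fold change 2.51 ± 0.15, adjusted p = 7.08e-06). The chains of the interferon lambda receptor also rose, Il10rb (log2 fold change 1.59 ± 0.29, adjusted p = 0.00123) and Ifnlr1 (log2 fold change 2.64 ± 0.58, adjusted p = 0.00390). Ifnlr1 had 3.63, 16.0 and 3.49 CPM in marrow AML, against 1.12, 1.51 and 1.08 CPM in marrow control, so library 2 was far above the other AML libraries.

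Of 9 inhibitors of interferon signalling, 5 rose and 1 fell in leukaemic marrow, beside 20.4% and 23.5% of all genes tested. Socs1, which shuts off Janus kinases at the interferon receptors, had 37.7, 59.8 and 58.0 CPM in marrow AML, against 10.6, 8.24 and 12.04 CPM in marrow control (log2 fold change 2.33 ± 0.28, adjusted p = 0.000111). Its relative Socs3 had 863, 1165 and 839 CPM in marrow AML, against 150.0, 136 and 205 CPM in marrow control (log2 fold change 2.54 ± 0.25, adjusted p = 3.50e-05). Neither gene overlapped between the marrow groups. The phosphatase Ptpn1, which acts on Jak2 and Tyk2, rose as well (log2 fold change 1.47 ± 0.13, adjusted p = 2.41e-05). In the lung Socs3 was the only one of the 9 inhibitors called (log2 fold change 1.03 ± 0.24, adjusted p = 0.0479), while Socs1 did not pass (log2 fold change 0.11 ± 0.27, adjusted p = 0.939). The AML effects differed for Socs1 (log2 difference 2.23 ± 0.39, adjusted p = 0.00172) and Socs3 (1.51 ± 0.33, adjusted p = 0.00601).

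Of 11 sensors and adaptors tested, 3 rose and 3 fell in the marrow, led by Myd88, the adaptor of Toll-like receptors (log2 fold change 1.20 ± 0.16, adjusted p = 0.000211), Sting1, the adaptor of the cytosolic DNA sensor (log2 fold change 2.09 ± 0.44, adjusted p = 0.00268), and Trim25, a ubiquitin ligase that activates RIG-I and fell (log2 fold change -1.75 ± 0.34, adjusted p = 0.00179). Of 55 further interferon-stimulated genes tested, 16 rose and 16 fell in the marrow, where 20.4% of all genes were called higher and 23.5% lower. Ube2l6, the enzyme that hands Isg15 to its ligases, fell to 98.7 ± 23.6 CPM in marrow AML, against 455 ± 48.6 CPM in marrow control (log2 fold change -2.21 ± 0.19, adjusted p = 2.03e-05). Uba7, which activates Isg15, fell in marrow (log2 fold change -1.23 ± 0.20, adjusted p = 0.000698) and lung (log2 fold change -1.19 ± 0.20, adjusted p = 0.0157). Isg20, an exonuclease, and Pml, the organiser of nuclear bodies, fell in the marrow (log2 fold change -2.56 ± 0.31, adjusted p = 0.000126 and log2 fold change -2.94 ± 0.27, adjusted p = 2.56e-05). Shisa5, a membrane protein of cell death, rose there (log2 fold change 1.81 ± 0.18, adjusted p = 4.11e-05). In the lung 2 of the 86 genes rose and 5 fell, beside 1.17% and 1.16% of all genes. Plscr1, a phospholipid scramblase, and Sp100, another nuclear body protein, were among those that fell (log2 fold change -1.30 ± 0.20, adjusted p = 0.0112 and log2 fold change -1.34 ± 0.21, adjusted p = 0.0112).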

How the data were processed

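RNA of sorted cells was sequenced in 12 libraries, 3 in each of 4 groups, made with low-input kits per the labels' protocols. The tools bcl2fastq and STAR and the build mm10 are named in the submitters' processing notes; the sources used here give no versions, counting tool or annotation. The deposited values are whole-number counts per gene symbol, 1 file per library and not normalized. The 32 genes and every list were chosen with earlier results of these data known.

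Counts were filtered by group (minimum count 10, minimum total 15) to 18147 of 55291 genes, scaled by TMM (factors 0.865 to 1.25) and fitted with edgeR 4.0.16 in R 4.3.3, by the quasi-likelihood test on all 12 libraries with 8 residual degrees of freedom. Standard errors are the log2 fold change divided by the root of F. Leukaemic and control libraries were compared within marrow and within lung, these effects were compared with each other, and marrow controls were set against lung controls, so that comparisons share libraries. Values in every library are given for the receptor chains, the transcription factors and, among genes that averaged 10 CPM or more in whichever group was higher, the 6 with the smallest p in the marrow and the 4 in each other comparison. Values of Ifit1, Ifit3, Usp18, Zbp1 and Mx2 per library were added after they were seen. From the pathway list, named genes are Jak1, Jak2, Tyk2, Ifng, Ifnb1 and up to 4 called genes with the smallest p per class; 1 gene of the rule is not reported here. Alternatives used limma 3.58.1 and DESeq2 1.42.0, other scalings and filters, replicate number as a block, and each library left out in turn. Positions are from GENCODE on GRCm38 and promoters from RefSeq. Floors cover counting error only. Values after ± are SDs for CPM and standard errors for log2 values, and both hold the spread between libraries.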

Additional observations from a re-analysis of the deposited data

Results flagged for a closer look

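The leukaemia effect differed between marrow and lung for 16 of the 31 tested genes (edgeR's quasi-likelihood test of the difference, Benjamini-Hochberg adjusted), and 30.7% of all genes tested did so. Values are the log2 effect in marrow minus that in lung. Positive differences were 3.11 for Ifngr2, 3.11 for Mx2, 2.15 for Irf1, 2.09 for Zbp1, 1.78 for Bst2, 1.70 for Ddx58, 1.54 for Ifngr1, 1.52 for Ifi35 and 1.12 for Ifnar2. Negative differences were -3.30 for Rsad2, -2.58 for Cmpk2, -2.47 for Ifit2, -2.27 for Herc6, -2.09 for Irf7, -1.34 for Eif2ak2 and -1.12 for Irf9. Without marrow AML library 3 the difference of Irf1 was 1.26. Of the 16 calls, 10 held under every alternative. With 1 library left out, the call was lost in 6 of 12 fits for Mx2 and for Cmpk2. It was lost in 5 for Irf1 and for Zbp1, and in 4 for Irf9. Adjusted p-values lay between 0.000149 for Ifngr2 and 0.0361 for Zbp1.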

How the results depend on the processing

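Of 63 calls over the 4 comparisons, 39 held under every alternative. Of 31 values of single genes that changed sign, 0 were called by the main test or by the alternative. Against 0 genes lower in the lung, there were 1 with library totals, 5 by DESeq2, 6 by limma-voom, 1 with no filter, 1 with a minimum of 5 CPM in 3 libraries and 2 when the 6 lung libraries were fitted alone; limma-voom called 2 higher there. In the marrow limma-voom called 5 higher. Library totals called 273 of all genes lower in the lung, in place of 211. For the other settings of this paragraph the number of all genes called is not given. Library totals called 4 lower for the difference, and moved Eif2ak2 in the lung to -0.012 and the Xaf1 difference to 0.026. By limma-voom Ifi44 was -0.12 in the marrow and the Usp18 difference -0.18. Stat2 in the lung was 0.014 with 5 CPM. The replicate numbers were not taken to pair samples: deviations of same-numbered samples correlated at -0.17, 0.054 and -0.078 between the marrow groups, 0.20, -0.012 and -0.20 between the lung groups and 0.041, 0.26 and -0.032 between the controls; marrow AML was not checked against lung AML. With the replicate block, 1 gene was lower in the lung, Ifi44 was -0.13 in the marrow and Stat2 0.0050 in the lung.

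Leaving out 1 library at a time, the marrow had 5 to 10 genes higher and the lung 0 to 3 lower, the 3 without marrow AML library 3. Marrow controls had 5 to 8 higher and 11 to 18 lower than lung controls. The numbers of all genes called in these fits are not given, so these counts cannot be set against them. Marrow ranges were -0.50 to 0.81 for Ifi44, -0.15 to 1.77 for Ifit1 and -0.21 to 2.34 for Ifit3. Lung ranges were -0.034 to 0.25 for Eif2ak2, -0.38 to 0.22 for Ifih1, -0.61 to 0.046 for Rsad2 and -0.20 to 0.20 for Stat2. For the difference, the median ran from -0.067 to 0.53, Ifit1 from -0.40 to 1.53, Ifit3 from -0.43 to 2.12, Parp14 from -0.21 to 0.59, Rtp4 from -0.50 to 0.49 and Usp18 from -0.62 to 0.46. Samd9l between controls ran from -0.030 to 0.39. The cause of these changes was not tested. Depth limits Mx1, Mx2 and the ligands, which had few or 0 counts.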
